A study of Homo sapiens with 6 samples.

Results

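The genes described here encode 10 enzymes that remove superoxide and peroxides: catalase (CAT), the peroxiredoxins PRDX1, PRDX2, PRDX3, PRDX5 and PRDX6, the glutathione peroxidases GPX1 and GPX4, and the superoxide dismutases SOD1 and SOD2. They were chosen by name, by matching these symbols to the Ensembl gene identifiers of the count tables, and are 10 of the 57500 genes listed there. RNA was sequenced from wild-type HepG2 cells, an established human hepatocarcinoma line, after 24 h with vehicle (3 libraries) or with 10 mM glycine (3 libraries). The standard medium of the study already contains glycine at a lower concentration, so the vehicle cells were not free of it. The comparison asks which transcripts of these enzymes differ in cells given glycine, which the study examined as a source of cyanide formed by cells. The cells of both groups were the same unmodified line, and the design calls the 3 libraries of a group independent replicates.

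Superoxide, which leaks mainly from the respiratory chain, is converted to hydrogen peroxide by dismutases, SOD1 in the cytosol and intermembrane space with copper and zinc, and SOD2 in the mitochondrial matrix with manganese. Hydrogen peroxide is then split to water and oxygen by catalase, a haem enzyme of peroxisomes, or reduced by peroxiredoxins, which are recharged mostly by thioredoxin, and by glutathione peroxidases, which use glutathione. GPX1 and GPX4 carry selenocysteine in their active site, and GPX4 acts on lipid hydroperoxides in membranes. Liver cells are rich in catalase, peroxisomes and glutathione.

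The libraries held from 31795489 to 58815986 counts, with glycine replicate 2 the deepest. All 10 genes passed the filter on low counts, and their counts per library ran from 2985 (CAT, glycine replicate 1) to 46563 (PRDX1, glycine replicate 2), which limits the counting error to between 0.463% and 1.83% (SD). Hepatocyte markers were high: the 9 markers summed to between 30139 and 34074 CPM (counts relative to the TMM-scaled total of the library) with vehicle and between 26277 and 30095 CPM with glycine, and 2 of them, APOA1 and TTR, were called lower. Of 5 leukocyte markers, CD3E was at 0, PTPRC had 9 counts over all libraries and MS4A1 had 2, while LYZ alone reached 2229 CPM with vehicle and 1787 CPM with glycine (edgeR adjusted p = 0.0172). The 5 summed to between 2124 and 2327 CPM in the vehicle libraries and between 1692 and 1851 CPM in the glycine libraries, nearly all of it LYZ. Of the 2 tested, CD68 was called higher and LYZ lower. The 4 endothelial markers summed to between 5.45 and 5.76 CPM (vehicle) and between 4.6 and 5.26 CPM (glycine), with 1 of 3 tested called lower, and the 4 fibroblast and stellate cell markers to between 27.0 and 30.9 CPM and between 21.2 and 21.9 CPM, with 1 of 2 tested called higher and 1 lower. KDR had 1 count and DCN 3 counts over all libraries. The part of these marker changes in the results below was not tested. All libraries came from the same unmodified line, so the markers of other cell types served as a check of the label. In bulk RNA, a change in some of the cells and a change in every cell cannot be told apart.

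With glycine, CAT and PRDX1 fell and GPX1 rose, and the other 7 enzyme genes were not called (edgeR quasi-likelihood test, Benjamini-Hochberg adjusted p under 0.05 over 15492 tested genes). The changes were of about the same size: the percent change was -20.3% for CAT (95% interval, -26.7% to -13.2%), -21.0% for PRDX1 (-29.5% to -11.4%) and 27.8% for GPX1 (11.4% to 46.6%). Of all tested genes, 13.3% were called, 6.71% higher and 6.54% lower, against 3 of 10 of the enzyme genes, 1 higher and 2 lower. The median log2 change was -0.08 over the 10 enzyme genes and 0.00 over all tested genes. In 4 of the 10 the glycine and vehicle libraries did not overlap, namely CAT, PRDX1, PRDX6 and GPX1. Glycine was below vehicle in 3 of them and above in 1. Of all tested genes, 31.6% did not overlap, 14.4% with glycine below and 17.2% with glycine above.

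**Figure D1:**
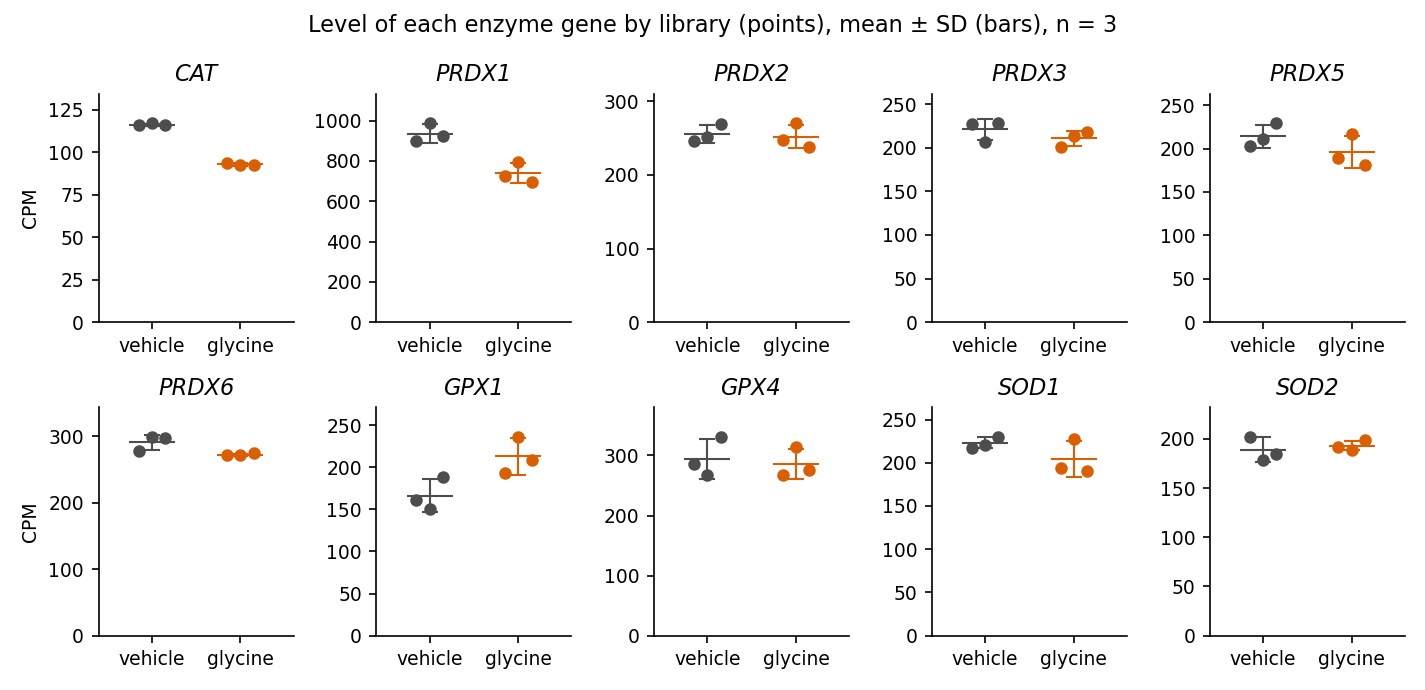
Level of each of the 10 enzyme genes in CPM (vertical axis, from 0) in the 3 vehicle (grey) and 3 glycine (orange) libraries, with the mean and SD as bars. The glycine libraries lie below all vehicle libraries for CAT, PRDX1 and PRDX6, above them for GPX1, and overlap them for the other 6 genes.

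CAT encodes catalase, the peroxisomal enzyme whose substrate is hydrogen peroxide (ENSG00000121691, chromosome 11, 34438925 to 34472062, plus strand, GRCh38). No other gene of the deposited annotation shares its exons. Its level was 116, 117 and 116 CPM in the vehicle libraries and 93.5, 92.6 and 92.3 CPM in the glycine libraries. Every glycine library was below every vehicle library. The spread within a group was 0.658% of the mean with vehicle and 0.696% with glycine. Both are below the 1.56% that counting error alone gives, so these 3 libraries per group understate the spread. The log2 change was -0.33 ± 0.0567 (s.e., n = 3 per group, edgeR adjusted p = 0.00209). It was the smallest p-value among the 10 genes, and the call held in all 17 other settings, including each fit without 1 library.

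A RefSeq promoter sequence was at hand for 7 of the 10 genes (CAT, PRDX2, PRDX3, PRDX5, GPX1, GPX4 and SOD2). That of CAT is shown, as the gene with the firmest change. It is the 250 bases before the RefSeq start site, at chr11:34438684-34438933 on the plus strand (GRCh38.p14). Capitals mark every match, on either strand, to 6 motifs, which are the CCAAT box (letters CCAAT), the GC box (letters GGGCGG), the TATA box (letters TATAAA), the E-box (letters CACGTG), the core of the antioxidant response element bound by NRF2 (TGACNNNGC) and a forkhead core (letters GTAAACA). The sequence is written from its far end to the base before the start site.
CAT: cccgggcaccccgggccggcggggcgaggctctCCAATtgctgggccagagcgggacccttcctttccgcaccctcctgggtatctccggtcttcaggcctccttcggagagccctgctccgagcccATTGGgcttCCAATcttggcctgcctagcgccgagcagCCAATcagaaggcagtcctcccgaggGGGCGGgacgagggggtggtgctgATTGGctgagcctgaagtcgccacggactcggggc

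The CAT window held 5 matches to CCAAT, 3 on the strand of the gene and 2 on the other, and 1 GC box. Of 35116 windows of the same length, 32.0% held at least 1 CCAAT, and 0.319% held 5 or more, a threshold chosen after the CAT window was seen. Most of the window of GPX1 lies within its transcript in the deposited annotation, and it held 1 GC box, as in 42.6% of all windows, and 1 E-box, as in 6.34%. No window of the 7 genes held the TATA box (10.7% of all windows), the antioxidant response element core (10.9%) or the forkhead core (2.98%). Among the other enzyme genes, CCAAT was matched in 2 of the 3 windows of GPX4 and in 2 of the 4 windows of SOD2, and in none of those of PRDX2, PRDX3 and PRDX5.

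The 3 tested genes whose pattern over the 6 libraries was closest to that of CAT were RFX5, SEPTIN6 and C4BPB. The measure was the root mean square difference of log2 CPM, each gene centred on its own mean, and it was 0.021, 0.0226 and 0.0237. RFX5, a transcription factor of MHC class II genes, went from 41.4 ± 0.789 to 33.5 ± 0.437 CPM (SD, n = 3), and C4BPB, a chain of the complement regulator C4b-binding protein, from 47.6 ± 0.572 to 37.1 ± 0.325 CPM.

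PRDX1, a cytosolic peroxiredoxin recharged by thioredoxin, was the most abundant of the 10 genes (ENSG00000117450, chromosome 1, 45511036 to 45523047, minus strand). Its level was 896, 986 and 923 CPM with vehicle and 724, 796 and 697 CPM with glycine. Every glycine library was below every vehicle library, and the means were 935 ± 46.0 and 739 ± 50.9 CPM (SD, n = 3). The log2 change was -0.34 ± 0.0763 (s.e., edgeR adjusted p = 0.0105). Without glycine replicate 1 the adjusted p was 0.0508, and without glycine replicate 3 it was 0.0518 (edgeR), with log2 changes of -0.34 and -0.31. The exons of MMACHC, a gene of cobalamin processing on the other strand, cover 24.9% of the exon length of PRDX1, and the strand setting of the counting is not given in the sources used here. MMACHC was called higher, from 18.7 ± 0.812 to 24.3 ± 1.46 CPM (edgeR adjusted p = 0.00541).

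The other peroxiredoxins were not called. PRDX2, the close cytosolic relative of PRDX1, was at 246, 251 and 269 CPM with vehicle and at 247, 270 and 238 CPM with glycine, and the groups overlapped fully. Its log2 change was -0.02, with a 95% interval of the percent change from -11.1% to 9.16%. PRDX1 and PRDX2 have the same subcellular place, so their ratio was taken within each library, where the scaling factor cancels. There were 3.64, 3.93 and 3.43 PRDX1 counts per PRDX2 count with vehicle and 2.93, 2.95 and 2.93 with glycine. The ratio was lower in all 3 glycine libraries. Its spread among them, 0.393% of the mean, is below the 0.943% that counting error alone gives for PRDX2 with glycine, so it is understated. The ratios were chosen with the fold changes known and are given without a test.

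PRDX3, the peroxiredoxin of the mitochondrial matrix, was at 227, 207 and 228 CPM with vehicle and at 201, 213 and 218 CPM with glycine. PRDX5, which is found in mitochondria, peroxisomes and the cytosol, was at 203, 211 and 229 CPM with vehicle and at 189, 217 and 181 CPM with glycine. The groups overlapped for both, with log2 changes of -0.07 ± 0.0656 and -0.13 ± 0.0775 (s.e.) and edgeR adjusted p of 0.57 and 0.304. PRDX6, which takes its electrons from glutathione and also acts on phospholipids, was at 278, 299 and 297 CPM with vehicle and at 271, 272 and 275 CPM with glycine. All its glycine libraries were below the vehicle libraries, but the difference was small, a percent change of -6.46% (95% interval, -14.7% to 2.55%), and was not called (edgeR adjusted p = 0.347).

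GPX1, the main cytosolic and mitochondrial glutathione peroxidase, was the single enzyme gene of the 10 that was called higher (ENSG00000233276, chromosome 3, 49357176 to 49358600, minus strand). Its level was 161, 150 and 188 CPM with vehicle and 193, 236 and 209 CPM with glycine. The highest vehicle library and the lowest glycine library were close, and the spread within a group was 11.9% of the mean with vehicle and 10.3% with glycine, the widest of the 10 genes in both groups. The log2 change was 0.35 ± 0.0917 (s.e., n = 3 per group, edgeR adjusted p = 0.0221). The call was lost in 4 of the 6 fits that left out 1 library, with edgeR adjusted p of 0.0884 without vehicle replicate 1, 0.0641 without vehicle replicate 2, 0.0941 without glycine replicate 2 and 0.06 without glycine replicate 3. The log2 changes in these fits were 0.32, 0.28, 0.27 and 0.36.

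GPX4, the glutathione peroxidase of membrane lipids, was at 285, 268 and 331 CPM with vehicle and at 268, 314 and 276 CPM with glycine. Its groups overlapped, and the log2 change was -0.04, with an interval of the percent change from -14.6% to 10.7% (edgeR adjusted p = 0.811). Both selenoenzyme genes were highest in vehicle replicate 3 and in glycine replicate 2 of their groups. Within a library there were 0.567, 0.559 and 0.569 GPX1 counts per GPX4 count with vehicle and 0.72, 0.752 and 0.758 with glycine. This ratio varied by 0.937% (SD as a share of the mean) among vehicle libraries and 2.75% among glycine libraries, less than the 11.9% and 10.3% of the GPX1 level itself. The 0.937% is below the 1.3% that counting error alone gives for GPX1 with vehicle, so these 3 vehicle libraries understate the spread of the ratio. All glycine libraries were above all vehicle libraries in this ratio. Vehicle replicate 3 held the highest value of its group for 6 of the 10 enzyme genes, and glycine replicate 2, the deepest library, for 6 of the 10 in its group. The part of these libraries in the results was not tested beyond leaving each out.

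GPX1 has a processed pseudogene, GPX1P1 on chromosome X, which held 3492 counts over the 6 libraries, 7.52% of the GPX1 counts. Its level was 13.1, 11.2 and 14.5 CPM with vehicle and 14.6, 16.6 and 16.1 CPM with glycine, with all glycine libraries above all vehicle libraries. There were between 7.05 and 8.12 GPX1P1 counts per 100 GPX1 counts in every library. Its own test was not called (log2 change 0.29, edgeR adjusted p = 0.0733). With the counts of both rows summed, GPX1 had a log2 fold change of 0.35 (edgeR adjusted p = 0.0231). The pseudogenes of the other enzymes held at most 10 counts over all libraries each.

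**Figure D2:**
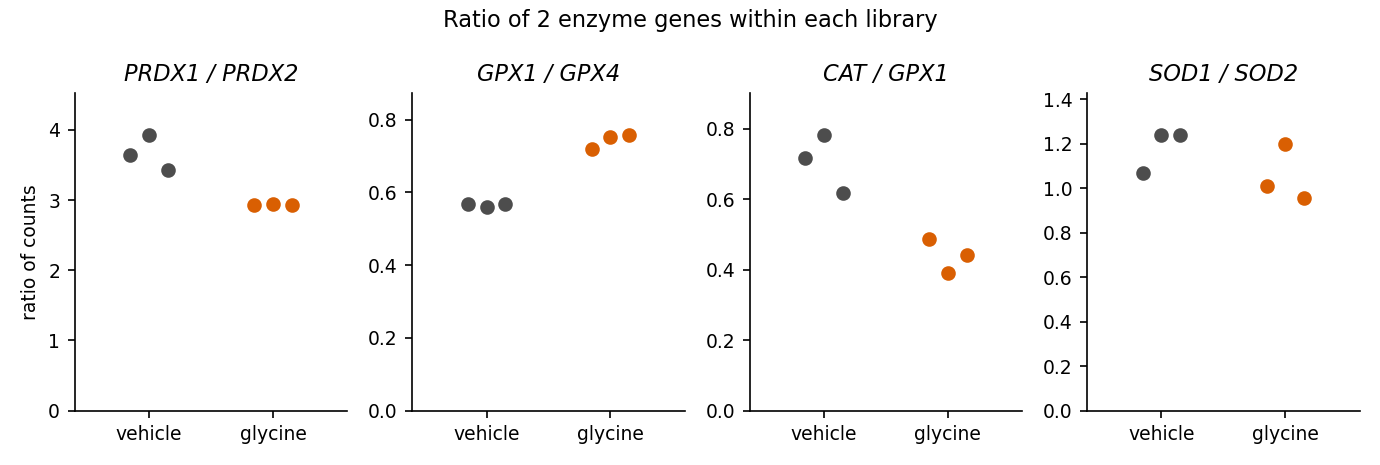
Ratio of the counts of a pair of enzyme genes within each library (vertical axis, from 0), for 3 vehicle (grey) and 3 glycine (orange) libraries. Glycine libraries lie below vehicle libraries for PRDX1 to PRDX2 and CAT to GPX1, above them for GPX1 to GPX4, and overlap them for SOD1 to SOD2.

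Catalase and GPX1 both remove hydrogen peroxide, in different compartments. There were 0.717, 0.783 and 0.617 CAT counts per GPX1 count with vehicle and 0.486, 0.392 and 0.441 with glycine. Of the counts of the 10 genes together, CAT took a mean of 4.01% with vehicle and 3.5% with glycine, PRDX1 32.2% and 27.8%, and GPX1 5.73% and 7.99%. The 10 genes summed to 2833, 2887 and 2996 CPM with vehicle and to 2572, 2827 and 2576 CPM with glycine. All glycine sums were below the vehicle sums, with that of glycine replicate 2 close to the lowest of them.

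Neither superoxide dismutase was called. SOD1 (ENSG00000142168, chromosome 21, 31659622 to 31668931, plus strand) was at 217, 221 and 230 CPM with vehicle and at 194, 228 and 190 CPM with glycine. It was lower in 2 glycine libraries and within the vehicle range in the third, with a log2 fold change of -0.13 and an interval of the percent change from -18.0% to 2.53% (edgeR adjusted p = 0.311). SOD2 (ENSG00000112096, chromosome 6, 159669057 to 159762529, minus strand) was at 202, 178 and 185 CPM with vehicle and at 192, 189 and 199 CPM with glycine. Its groups overlapped, with a log2 fold change of 0.04 and an interval of the percent change from -7.08% to 13.1% (edgeR adjusted p = 0.777). Exons of WTAP and ACAT2, on the other strand, cover 12.0% of its exon length. ACAT2, an acetyl-CoA acetyltransferase, was called lower, from 235 ± 11.3 to 193 ± 4.76 CPM (edgeR adjusted p = 0.00879), and WTAP, a subunit of the RNA methyltransferase complex, was not called, with 132 ± 3.03 CPM in vehicle and 134 ± 2.58 CPM in glycine libraries (edgeR adjusted p = 0.843). The part of these reads in the SOD2 counts was not tested.

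**Figure D3:**
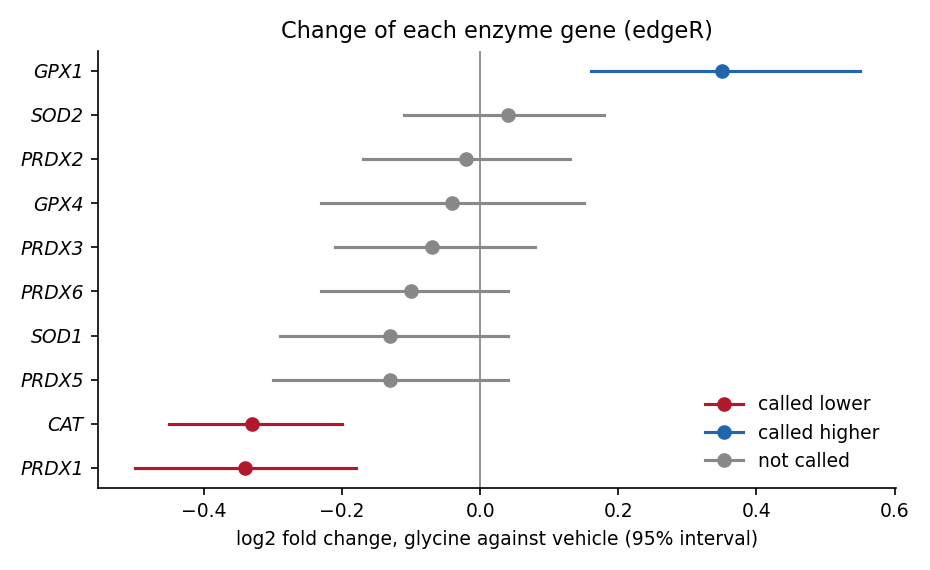
Log2 fold change of each enzyme gene, glycine against vehicle (horizontal axis), with its 95% interval as a line, from the edgeR fit over 15492 genes. The intervals of CAT and PRDX1 (red) lie below 0, that of GPX1 (blue) above 0, and those of the other 7 genes (grey) cross 0, between percent changes of -18.7% (PRDX5) and 13.1% (SOD2).

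The order of the genes by level was taken per kilobase, since longer transcripts collect more reads. Over all annotated exons of a gene, the mean level with vehicle, in the order of the mean over all 6 libraries, was 614 ± 30.2 CPM per kilobase for PRDX1, 240 ± 15.2 for PRDX5, 146 ± 16.2 for GPX4, 117 ± 13.9 for GPX1, 122 ± 5.76 for PRDX2, 123 ± 4.78 for PRDX6 and 110 ± 3.16 for SOD1 (SD, n = 3). PRDX3 was at 64.6 ± 3.54, CAT at 34.8 ± 0.229 and SOD2 at 9.93 ± 0.661 CPM per kilobase. Over the 6 libraries GPX4 overlapped with GPX1, GPX1 with PRDX2 and PRDX2 with PRDX6, and the other neighbours in this order were apart. The place of SOD2 depends on its length: the deposited annotation gives it 18985 bases of exons, whereas the median length of its basic coding transcripts in GENCODE 29 is 990.5 bases. With that length SOD2 was at 190 ± 12.7 CPM per kilobase with vehicle, in the sixth place, and CAT was last at 50.7 ± 0.334. PRDX1 was first and CAT in one of the last places by either length.

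**Figure D4:**
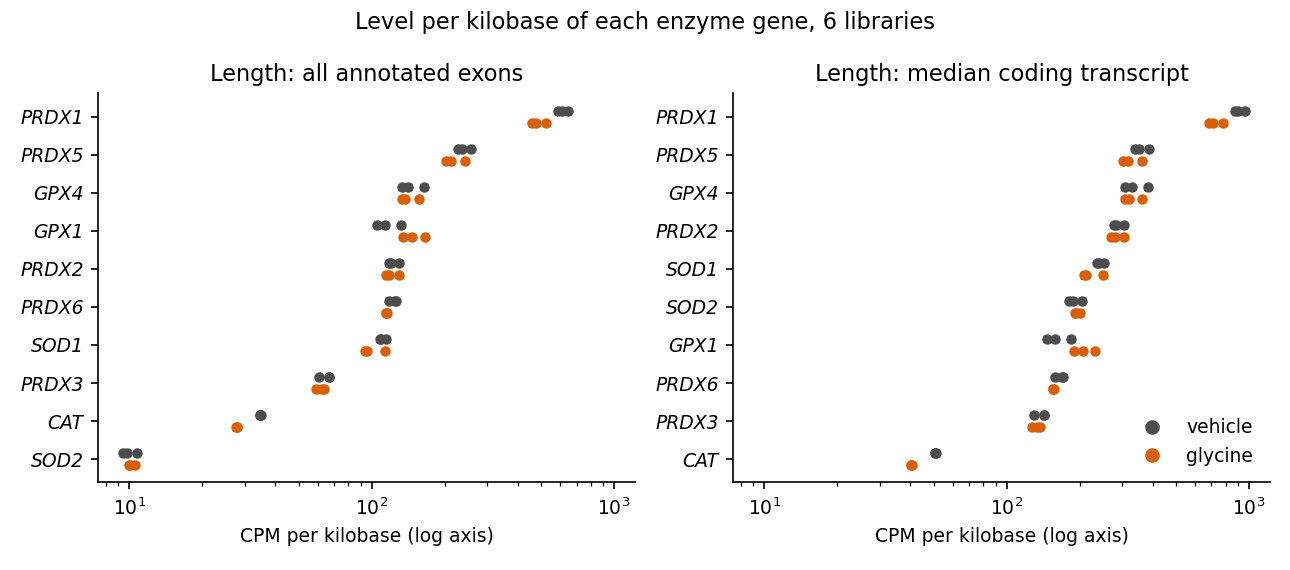
Level per kilobase of each enzyme gene in 3 vehicle (grey) and 3 glycine (orange) libraries, on a log axis, ordered by the mean of all libraries, with the length of all annotated exons on the left and the median coding transcript on the right. PRDX1 is highest in both, and SOD2 moves from the last place to the sixth.

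Among 111 other genes of peroxide metabolism, in lists compiled from general knowledge, 89 were tested and 16 were called, 5 higher and 11 lower, or 18.0% against 13.3% of all tested genes. In the same enzyme families, 1 of 6 tested genes was called. GPX2, a selenium-dependent glutathione peroxidase of epithelia, was at 563, 621 and 647 CPM with vehicle and at 413, 443 and 398 CPM with glycine, with a log2 fold change of -0.55 ± 0.0749 (s.e., edgeR adjusted p = 0.000358). The groups did not overlap, and the call, opposite in direction to that of GPX1, held in all 17 other settings. PRDX4, the peroxiredoxin of the endoplasmic reticulum, had a log2 fold change of -0.09, and GPX3, the secreted glutathione peroxidase, of 0.10. SOD3, the extracellular dismutase, was low, with 0.274 ± 0.0397 CPM in vehicle and 0.501 ± 0.163 CPM in glycine libraries (edgeR adjusted p = 0.131). GPX5 and GPX6 had 0 counts in all libraries.

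The electron supply of these enzymes was called in part. In the thioredoxin and glutaredoxin list, 1 of 11 tested genes was called lower and 0 higher, with a median log2 change of -0.09. The gene was GLRX2, a mitochondrial glutaredoxin, which went from 15.7 ± 0.143 to 13.2 ± 0.205 CPM (edgeR adjusted p = 0.0413) and kept its call in 7 of 17 other settings, and in none of the 6 fits without 1 library. Thioredoxin itself, TXN, which recharges PRDX1, had 200 ± 5.76 CPM in vehicle and 175 ± 15.9 CPM in glycine libraries and was not called (edgeR adjusted p = 0.0923). Its reductase TXNRD1 was at 214 ± 11.5 and 202 ± 5.08 CPM, and the sulfiredoxin SRXN1, which repairs overoxidised peroxiredoxins, at 36.2 ± 2.35 and 32.8 ± 1.52 CPM, neither of them called.

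In the glutathione and NADPH list, 3 of 11 tested genes were called lower and 1 higher, with a median log2 change of -0.15. GSR, glutathione reductase, went from 238 ± 11.4 to 181 ± 8.42 CPM (SD, n = 3), with a log2 fold change of -0.40 (edgeR adjusted p = 0.00144). IDH1, an NADPH-forming isocitrate dehydrogenase of the cytosol and peroxisomes, went from 618 ± 6.4 to 461 ± 11.3 CPM, with a log2 fold change of -0.42 (edgeR adjusted p = 0.000708). GCLC, the catalytic subunit of glutamate-cysteine ligase, had a log2 fold change of -0.22 (edgeR adjusted p = 0.0325). GSR and IDH1 kept their calls in all 17 other settings, and GCLC in 10.

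Of the genes for enzymes that form superoxide or peroxide, 2 of 16 tested were called higher and 0 lower. AOX1, aldehyde oxidase, went from 61.4 ± 5.5 to 74.9 ± 4.51 CPM (edgeR adjusted p = 0.0257), and MAOA, a monoamine oxidase of the outer mitochondrial membrane, from 22.7 ± 2.36 to 28.8 ± 2.94 CPM (edgeR adjusted p = 0.027). Each kept its call in 13 of 17 other settings. The NADPH oxidase genes NOX1, CYBB, NOX3, NOX4 and NOX5 were too low to test, with at most 57 counts over all libraries. None of the 6 haem peroxidase genes was high enough to test. Over the 6 libraries MPO had 3 counts, PXDN 4, PXDNL 4, EPX 10 and LPO 10, and a difference in them was not detectable at this depth.

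Of 9 selenocysteine supply genes, 0 were called by edgeR, 0 by DESeq2 and 0 by limma with voom. Their log2 changes ran from -0.36 to 0.14, with a median of -0.02. In the metal and cofactor list, 2 of 7 were called lower and 0 higher. SLC39A14, a zinc, iron and manganese importer, was at 1076, 974 and 955 CPM with vehicle and at 633, 599 and 663 CPM with glycine, with a log2 fold change of -0.67 ± 0.0758 (s.e., edgeR adjusted p = 7.88e-05). SLC30A10, a manganese exporter, went from 11.7 ± 0.759 to 8.97 ± 0.403 CPM (edgeR adjusted p = 0.0118). CCS, the copper chaperone of SOD1, had a log2 fold change of -0.15 (edgeR adjusted p = 0.245).

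In the list for peroxisome assembly and membrane, where catalase resides, 1 of 18 tested genes was called higher and 0 lower (median change 0.01 on the log2 scale). PEX10, a ubiquitin ligase of the import machinery, went from 37.1 ± 0.966 to 45.7 ± 0.932 CPM (edgeR adjusted p = 0.00681). PEX5, the receptor that imports catalase, had a log2 fold change of -0.14 and was not called (edgeR adjusted p = 0.139).

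Among 11 known regulators, 4 were called lower and 1 higher. FOXO4, a forkhead factor, was at 28.6, 28.2 and 30.1 CPM with vehicle and at 15.9, 16.4 and 13.6 CPM with glycine, with a log2 fold change of -0.92 ± 0.0823 (s.e., edgeR adjusted p = 9.96e-06). NFE2L2, which encodes NRF2, went from 227 ± 7.34 to 176 ± 11.9 CPM (edgeR adjusted p = 0.00271), while its inhibitor KEAP1 was not called (log2 change -0.15). PPARA, a receptor that controls peroxisomal genes in liver, and its coactivator PPARGC1A had log2 changes of -0.41 and -0.43 (edgeR adjusted p = 0.0104 and 0.0125). FOXO1 had a log2 fold change of 0.26 (edgeR adjusted p = 0.0329). FOXO4, NFE2L2 and PPARA kept their calls in all 17 other settings, PPARGC1A in 15 and FOXO1 in 12.

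**Figure D5:**
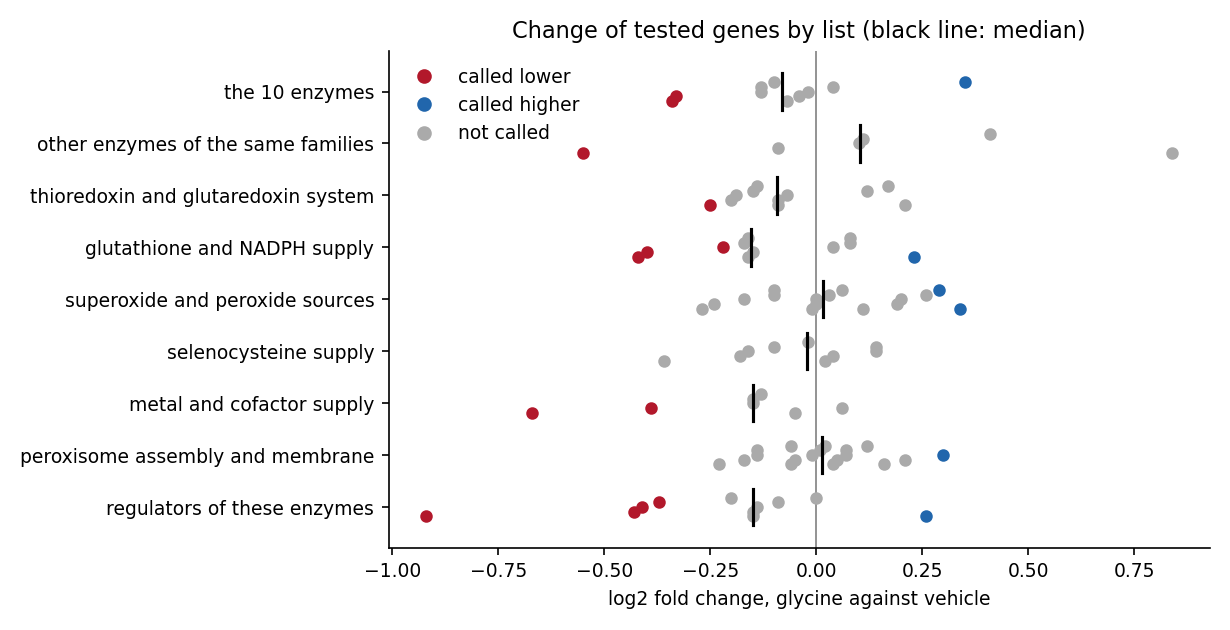
Log2 fold change, glycine against vehicle (horizontal axis), of every tested gene of the 10 enzymes and of 8 other lists, with genes called lower in red, called higher in blue and not called in grey, and the median of a list as a black line. The points of each list are spread vertically for legibility. The lowest value is that of FOXO4, and the highest, not called, that of SOD3.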

How the data were processed

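The submitters' processing notes name Trimmomatic 0.36, STAR 2.5.2b, featureCounts of Subread 1.5.2 and GRCh38, without the role or settings of each. The files deposited by the authors hold raw whole-number counts, 1 file per library, with no normalization. Annotation release, strand setting and handling of reads with several matches are not given in the sources used here. The test was a two-sided quasi-likelihood one from edgeR (version 4.0.16, R version 4.3.3), with TMM scaling, group as the only term and the default expression filter (count minimum 10, total minimum 15), and p-values were adjusted over 15492 genes. Intervals used the standard error (the log2 change over the square root of F) and a t distribution.

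The 10 genes and all lists were chosen with earlier results of these data known, so their results are not independent support. Named genes are the 10 enzymes, called members of the other lists (at most 5 each), and the 3 genes most like CAT. Others were named after their values were seen, and some listed genes are counted but not reported here by name. Library pairs of a group differed by a chi-square of 6.97 to 26.8 per degree of freedom, so each was kept as a separate sample. Alternatives were other scalings, filters and tests (DESeq2 1.42.0, limma 3.58.1 with voom), blocking on the replicate number, and omission of each library in turn. Summing GPX1 with GPX1P1, scaling without the 10 genes and coding transcript length were chosen after the data were seen. Intervals cover the spread between these libraries, and counting errors cover counting only, since without molecular identifiers a read need not be its own molecule.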

Additional observations from a re-analysis of the deposited data

How the results depend on the processing

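Over the scaling, filter and test alternatives with all 6 libraries, CAT, PRDX1 and GPX1 kept their direction and their call. Across the fits that each left out 1 library, the enzyme genes called higher numbered from 0 to 1 and those called lower from 1 to 2, and these fits have fewer samples. Over all tested genes, from 587 to 926 were called higher and from 655 to 1010 lower in them, against 1040 and 1013. Of the other listed genes, from 1 to 5 were called higher in them, and 3 with the replicate number as a block, against 5. Log2 changes near 0 turned for PRDX2 without vehicle replicate 3 (0.02) and without glycine replicate 3 (0.01), for GPX4 without vehicle replicate 3 (0.05) and for SOD2 without vehicle replicate 2 (-0.0025). Over the fits without 1 library these changes ranged from -0.07 to 0.02 for PRDX2, from -0.11 to 0.05 for GPX4 and from -0.0025 to 0.08 for SOD2, and the cause was not tested.

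Same-numbered libraries did not deviate together (correlations of -0.058, -0.027 and -0.003), so the numbers were not taken as pairs. Positive values were found across numbers: 0.214 (glycine 3, vehicle 1), 0.214 (glycine 1, vehicle 2) and 0.18 (glycine 2, vehicle 3). The other pairs across numbers ran from -0.198 to -0.154. Whether libraries of unlike number shared an experimental day was not tested, and the block on the replicate number does not cover it. With the replicate block, 866 genes were higher and 918 lower, and CAT, PRDX1 and GPX1 stayed called (edgeR adjusted p = 0.0065, 0.0119 and 0.0164), while GLRX2, GCLC and FOXO1 were not. In the order of levels, 1 of the 10 genes kept its place without length scaling and 3 with coding transcript length.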
